A study of Mus musculus with 20 samples.

Results

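The genes described here are 10 immediate early genes, *Fos*, *Fosb*, *Jun*, *Junb*, *Jund*, *Egr1*, *Atf3*, *Ier2*, *Dusp1* and *Zfp36*. They were chosen by name, as the rows that carry these symbols in the gene count tables, and they make up 10 of the 43280 genes listed. The accessible chromatin at their start sites was read from 4 peak lists of the same embryonic tissues.

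Immediate early genes are transcribed within minutes of a growth factor, stress or mechanical stimulus, by transcription factors such as serum response factor and CREB that are already bound or present in the cell, and without new protein synthesis. FOS and JUN proteins pair through leucine zippers into the AP-1 transcription factor, EGR1 is a zinc finger activator and ATF3 a stress-induced member of the ATF/CREB family. DUSP1 and ZFP36 close the loop, since the first removes phosphate from MAP kinases and the second binds AU-rich mRNAs and speeds their decay. In tissue that is dissociated with enzymes before cell sorting these genes are also known to be induced during the dissociation itself.

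Embryonic mesenchyme was sorted at E13.5 from the stomach and the intestine of mice labelled C57BL/6. The study's reporting summary describes its mice, embryonic and adult, as of mixed strain backgrounds. Control mice were Bapx1-cre;Rosa26mTmG and *Eed* KO mice were Eedfl/fl;Bapx1-cre;Rosa26mTmG, so that both carried the Cre, and the sorted GFP+ cells were those in which Bapx1-cre had recombined the reporter. EED is a core subunit of Polycomb repressive complex 2, which places the repressive H3K27me3 mark. The adult libraries came from sorted intestinal mesenchyme of mice labelled WT or EED-KO, which by the study's methods carried a tamoxifen-inducible *Pdgfrβ* Cre-ERT2 and the same reporter in both groups, with the floxed *Eed* alleles in the EED-KO mice, at about 10 weeks of age. The methods describe tamoxifen injections of the adult mice on consecutive days, with dissection shortly after the last dose. No such treatment is described for the embryos. RNA was sequenced from 2 libraries per group, 8 embryonic and 4 adult. The study calls the replicates of its sequencing experiments biological, but the labels only number the libraries within a group and name no animals. The p-values therefore measure only the spread between these libraries, and in sorted bulk cells fewer cells of a type and less RNA per cell cannot be told apart.

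Embryonic libraries held 30236159 to 39606157 counts on genes and adult libraries 11404712 to 15903642. *Eed* itself, counted over the whole gene, fell by 2.02 ± 0.21 (SE) on the log2 scale in embryonic *Eed* KO intestine (adjusted p = 0.00464). In *Eed* KO stomach it fell by 2.11 ± 0.21 (adjusted p = 0.00175). In the adult libraries labelled EED-KO it was 25.6 and 25.0 CPM (counts scaled by library size) against 29.7 and 33.4 CPM in WT, a difference that did not pass (log2 -0.32 ± 0.21, adjusted p = 0.317), so these are called by their label throughout. The study gave a separate measure of *Eed* deletion efficiency in isolated adult pericryptal cells, which was not re-examined here. All 10 genes of a mesenchyme marker list were at 1 CPM or more in every embryonic library and 8 of 10 in every adult library. Markers of leukocytes were close to absent in embryonic cells, with 8 genes (of 9 listed) summing to 4.57 to 12.6 CPM and *Ptprc* (CD45) at 0 counts in the stomach libraries, whereas in adults they summed to 744 to 1042 CPM in WT and 13412 to 15881 CPM in the libraries labelled EED-KO.

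The promoters of 8 of the 10 genes were found in the RefSeq promoter table (GRCm38.p6), which holds 250 bases before and 50 after each start for 32851 promoters, and *Egr1* and *Ier2* were not matched. All 4 sequences below are shown 5′ to 3′ on the gene's own strand, for the founding pair of AP-1 genes, for *Jund*, whose annotated start lay outside its accessible region, and for *Dusp1*, the gene with the largest difference in embryonic cells. Capitals mark the letters TGACG, the core of a cAMP response element (CRE), on either strand, the full palindromic CRE TGACGTCA, which contains that core on both strands, and the TATA box TATAAA.
*Fos* promoter, chr12:85473640-85473939, plus strand: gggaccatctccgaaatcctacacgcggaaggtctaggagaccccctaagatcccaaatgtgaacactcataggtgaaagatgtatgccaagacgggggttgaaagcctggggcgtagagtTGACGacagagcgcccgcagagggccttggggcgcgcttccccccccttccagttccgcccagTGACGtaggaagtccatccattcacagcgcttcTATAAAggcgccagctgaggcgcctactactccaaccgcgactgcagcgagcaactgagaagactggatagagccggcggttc
*Jun* promoter, chr4:95052173-95052472, minus strand: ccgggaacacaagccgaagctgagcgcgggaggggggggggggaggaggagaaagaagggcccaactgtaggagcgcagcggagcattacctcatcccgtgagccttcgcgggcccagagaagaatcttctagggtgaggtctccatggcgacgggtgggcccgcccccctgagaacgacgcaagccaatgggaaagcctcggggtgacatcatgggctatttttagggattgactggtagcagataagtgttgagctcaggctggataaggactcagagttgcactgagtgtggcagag
*Jund* promoter, chr8:70697489-70697788, plus strand: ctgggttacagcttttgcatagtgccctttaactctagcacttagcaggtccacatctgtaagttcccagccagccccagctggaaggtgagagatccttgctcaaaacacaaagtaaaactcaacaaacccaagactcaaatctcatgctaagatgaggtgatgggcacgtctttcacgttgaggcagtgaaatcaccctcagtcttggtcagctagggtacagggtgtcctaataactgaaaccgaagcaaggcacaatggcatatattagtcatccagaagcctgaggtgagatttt
*Dusp1* promoter, chr17:26508423-26508722, minus strand: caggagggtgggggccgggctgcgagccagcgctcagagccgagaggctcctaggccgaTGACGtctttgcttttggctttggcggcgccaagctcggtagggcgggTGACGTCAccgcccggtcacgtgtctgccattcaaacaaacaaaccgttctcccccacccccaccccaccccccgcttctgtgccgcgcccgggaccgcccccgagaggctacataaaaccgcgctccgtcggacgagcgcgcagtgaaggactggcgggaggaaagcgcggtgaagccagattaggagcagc

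The CRE core TGACG, searched on both strands, was present in 5 of the 8 promoters, *Fos*, *Fosb*, *Junb*, *Atf3* and *Dusp1*, and in 20.8% of all promoters in the table. In *Fos* it stood 129 to 125 and 66 to 62 bases before the start, and a TATA box 33 to 28 bases before it. The full CRE was found in *Dusp1* alone, 143 to 136 bases before the start, and in 1.79% of all promoters. Within this window *Zfp36* alone of the 8 held a CArG box, the element bound by serum response factor, searched as CC, 6 letters of A or T, and GG. Its letters were CCATAAAAGG at 58 to 49 bases before the start, a motif present in 1.63% of all promoters. Looser forms, sequence further upstream and the promoters of *Egr1* and *Ier2* were not searched. No member held an AP-1 site (TGANTCA, 7.81% of all promoters), 2 held an EGR site (GCGNGGGCG, in *Fosb* and *Zfp36*, against 5.55%), 2 a TATA box (*Fos* and, at the start itself, *Junb*, against 13.6%) and 6 an Sp1 site (GGGCGG, against 35.7%), the EGR and Sp1 letters of *Fosb* overlapping. Of these promoters 7 had a GC content of 58.7% to 68.3%, above the 52.7% median of the table. The *Jund* window stood apart with 46.7% GC and 3 CpG dinucleotides, where the others had 15 to 31 and the median of the table was 7. That window lay outside the accessible region of the gene.

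Accessible regions at the start sites were present in all 4 embryonic conditions. Peaks had been called on pooled replicates, 1 list per condition, so that conditions can be set side by side but not tested. Within 1000 bp of the outermost annotated start, 9 of 10 members had a peak in every list, against 87.8% of the genes tested for expression in the control intestine, 88.3% in the control stomach, 88.9% in the *Eed* KO intestine and 88.9% in the *Eed* KO stomach. The exception was *Atf3*, whose gene model (chr1:191170296-191218039, minus strand) begins far upstream of the RefSeq start, and a peak of 3.88-fold to 5.20-fold enrichment over background did lie at that RefSeq start in all 4 lists. *Jund* (chr8:70697739-70700616) had a peak that opened 586 to 592 bp downstream of its start in the 4 lists, leaving the promoter window printed above outside it.

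Averaged over each peak, enrichment at these promoters was below that of the typical expressed gene with a promoter peak. Over the 9 members it ran from 2.63-fold to 5.50-fold, where the median over all genes with a promoter peak was 6.46-fold to 6.91-fold, depending on the list. *Dusp1* (chr17:26505590-26508519) was the most enriched member in each list, at 5.50-fold in the control intestine, 5.49-fold in the control stomach, 5.29-fold in the *Eed* KO intestine and 5.44-fold in the *Eed* KO stomach. *Zfp36* (chr7:28376784-28379255) had the narrowest peaks, 420 to 440 bp, with 2.68-fold to 2.95-fold enrichment. *Jun* (chr4:95049034-95052222) had a peak of 5511 bp at 2.63-fold in the control intestine, 5343 bp at 3.25-fold in the control stomach, 2951 bp at 3.69-fold in the *Eed* KO intestine and 2929 bp at 3.92-fold in the *Eed* KO stomach. The fold enrichment is an average over a peak, so that the wider control peaks of *Jun* are not on the same footing as the shorter ones. Except at *Fosb* and *Zfp36*, member peaks were also wider than the median peak of each list, 520 to 562 bp. The part of width in the lower enrichment of the members was not tested. At *Fos* (chr12:85473890-85477273) the peak spanned 2649 to 2848 bp, at 3.98-fold (intestine) and 3.80-fold (stomach) in controls and 4.66-fold (intestine) and 4.38-fold (stomach) in *Eed* KO.

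**Figure D1:**
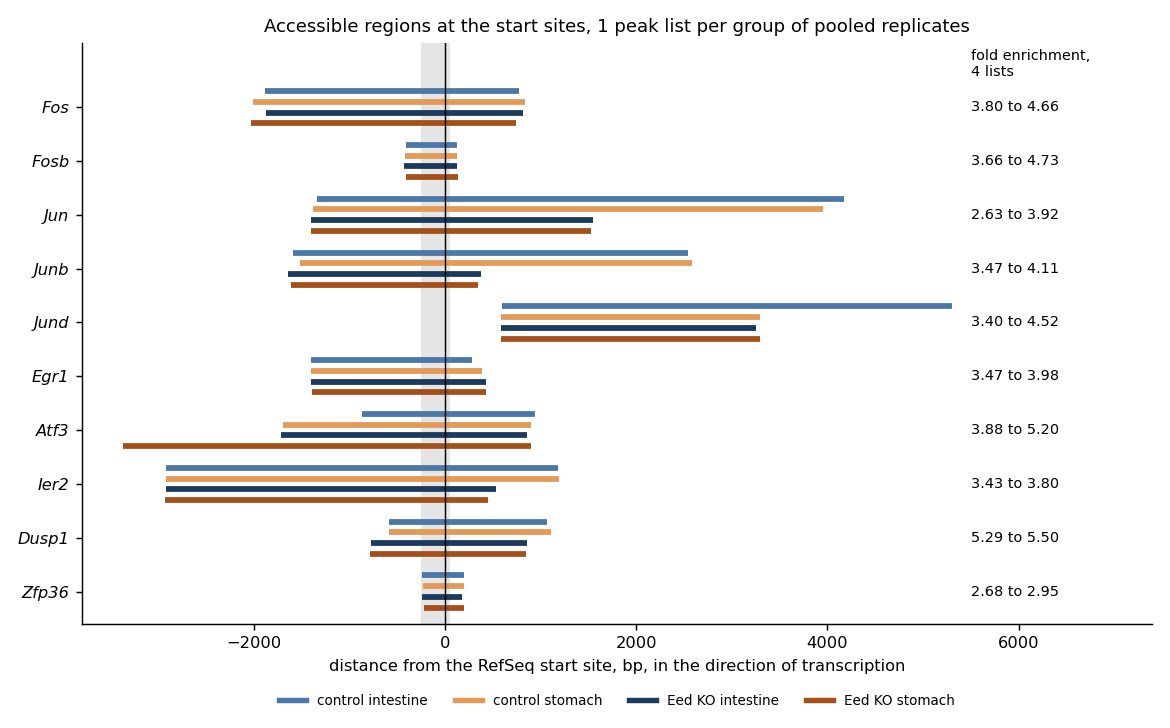
Extent of the accessible region at each start site, in bp from the RefSeq start in the direction of transcription, with 1 bar per peak list (pooled replicates) and the range of fold enrichment over the 4 lists at the right; the grey band is the 300-base promoter window. All members but *Jund* have a peak over the start in each list, and the *Jund* peak opens 586 to 592 bp downstream.

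Per unit of gene length, measured as TPM (counts divided by exon length and scaled to the same total in each library), *Fos* was the most abundant member in all 4 embryonic groups. Its level was 353 ± 172 TPM (SD, n = 2) in the control intestine and 737 ± 76.2 in the control stomach, which placed it 393rd and 165th among all genes. *Jund*, *Jun*, *Ier2* and *Egr1* followed at 146 to 194 TPM in the control intestine, a group whose order changed between tissues. *Dusp1* (23.2 ± 8.90 TPM) and *Atf3* (6.74 ± 2.27 TPM) were the least abundant members there and remained the last 2 in the order of each embryonic group. In the adult WT intestine *Fos* still led, at 1695 ± 29.5 TPM, and *Junb*, *Zfp36* and *Jun* came next at 1062 to 1271 TPM, whereas *Jund* (25.3 ± 2.82 TPM) and *Fosb* (23.1 ± 10.5 TPM) were last.

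Values per library within the embryonic set are given as CPM scaled by the trimmed mean of M values (TMM), first for the Fos family. *Fos*, which encodes the labile AP-1 partner, stood at 378 and 179 CPM in control intestine replicates 1 and 2, at 244 and 348 in the *Eed* KO intestine, at 611 and 530 in the control stomach and at 556 and 677 in the *Eed* KO stomach. *Fosb* (chr7:19302721-19310045), its closest relative, stood at 120 and 63.7, 84.5 and 158, 172 and 182, and 227 and 284 CPM in the same order. For both genes each stomach library was above each intestinal library. The control and *Eed* KO groups overlapped in the intestine for both genes and in the stomach for *Fos*, while for *Fosb* the *Eed* KO stomach libraries were above the controls.

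Among the Jun family the spread was smaller except for *Junb*. *Jun*, the main AP-1 partner of FOS, stood at 209 and 203 CPM in the control intestine, 209 and 266 in the *Eed* KO intestine, 238 and 255 in the control stomach and 260 and 257 in the *Eed* KO stomach. *Jund*, the family member that is largely constitutive, stood at 181 and 191, 165 and 195, 212 and 206, and 185 and 170 CPM. These 2 genes varied least, and *Jund* was the only member whose highest group was the control stomach. *Junb* (chr8:84976909-84978748) stood at 49.5 and 17.0 CPM in the control intestine, 42.0 and 45.7 in the *Eed* KO intestine, 75.0 and 69.5 in the control stomach and 103 and 113 in the *Eed* KO stomach. Its lowest library, control intestine replicate 2, was 2.91-fold below the other library of the same group.

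The remaining transcription factors and regulators showed the same low library. *Egr1* stood at 250 and 189 CPM in the control intestine, 254 and 500 in the *Eed* KO intestine, 310 and 411 in the control stomach and 592 and 823 in the *Eed* KO stomach. *Atf3*, the least abundant member, stood at 6.09 and 3.63 CPM, 11.3 and 9.75, 6.78 and 5.84, and 11.7 and 7.29 CPM. *Ier2* (chr8:84661331-84662852), a nuclear protein gene of the serum response, stood at 117 and 73.0, 93.2 and 86.7, 164 and 133, and 153 and 150 CPM. *Egr1* was highest in the *Eed* KO stomach, *Atf3* was higher in each *Eed* KO group than in the control group of its organ without overlap, and *Ier2* separated by organ only.

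Both feedback regulators separated by organ as well. *Dusp1* stood at 27.0 and 15.0 CPM in the control intestine, 30.7 and 24.6 in the *Eed* KO intestine, 58.5 and 45.6 in the control stomach and 60.0 and 56.7 in the *Eed* KO stomach. *Zfp36* stood at 56.2 and 34.9, 57.5 and 59.6, 66.3 and 67.6, and 114 and 106 CPM, and was the only member with no overlap between any 2 neighbouring groups in its order. Control intestine replicate 2 held the lowest value of 9 of the 10 members, all but *Jund*, and the *Eed* KO stomach libraries held the highest value of 7.

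**Figure D2:**
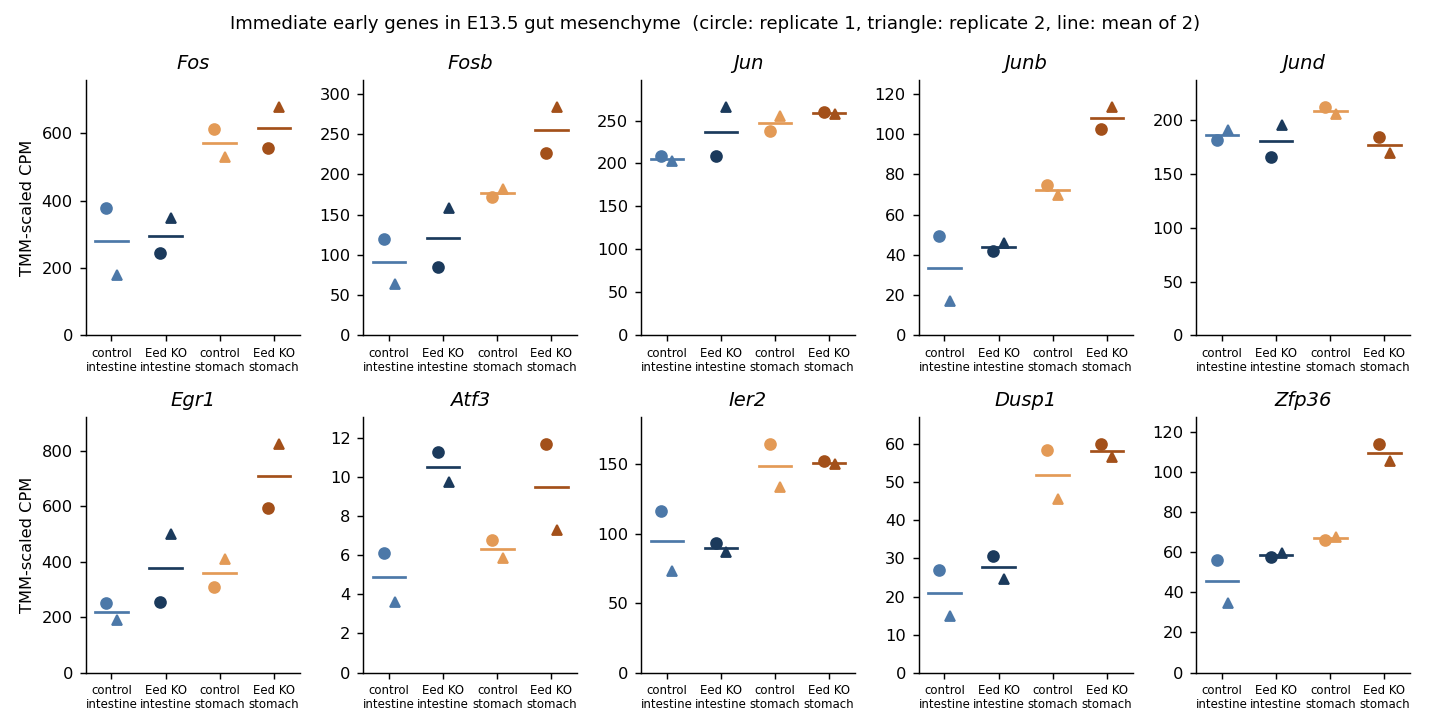
TMM-scaled CPM of each member in the 8 embryonic libraries, with circles for replicate 1, triangles for replicate 2 and a line at the mean of 2, on axes that start at 0. Each stomach library is above each intestinal library for *Fos*, *Fosb*, *Junb*, *Ier2*, *Dusp1* and *Zfp36*, and control intestine replicate 2 is the lowest library for 9 members.

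The spread between replicates was unusually wide for these genes in 1 group. In the control intestine the members differed between the 2 libraries by a median of 0.72 on the log2 scale, against 0.11 over the 11089 genes of at least 5 CPM, and 9 of 10 were lower in replicate 2. The same median was 0.28 in the *Eed* KO intestine (0.22 over all genes), 0.16 in the control stomach (0.11) and 0.13 in the *Eed* KO stomach (0.17). In the embryonic fit *Junb*, *Fosb*, *Fos* and *Egr1* had biological coefficients of variation of 28.3%, 24.8%, 23.6% and 23.4%, against a median of 11.9% over those genes. *Jun* and *Jund* lay below that median, at percentiles of 35.7 and 20.2 among those genes. In adults the members varied like other genes, with medians of 0.22 in both groups against 0.24 in WT and 0.29 in the libraries labelled EED-KO over all genes.

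To ask whether the members differ between the organs, control intestine was compared with control stomach. All 10 were lower in the intestine by their fold change and 9 did so without overlap between the libraries, an ordering shown by 26.7% of all genes. Their median log2 difference was -0.68, against 0.00 over the 16218 genes tested. A gene was called when its adjusted p was below 0.05 and its log2 difference exceeded 1 in size, and only *Dusp1* was (21.0 ± 8.48 against 52.0 ± 9.09 CPM, log2 -1.31 ± 0.27 SE, adjusted p = 0.0277), as 3.39% of all genes were in that direction. *Junb* (log2 -1.12 ± 0.40, adjusted p = 0.185), *Fos* (-1.03 ± 0.33, adjusted p = 0.135) and *Fosb* (-0.95 ± 0.35, adjusted p = 0.198) were lower by a similar amount and did not pass. *Jun* (-0.26 ± 0.12) and *Jund* (-0.17 ± 0.11) had the smallest differences.

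The *Dusp1* call was lost without any of 3 of the 4 libraries. Its adjusted p was 0.0792 without control intestine replicate 2, 0.153 without control stomach replicate 1 and 0.0712 without control stomach replicate 2, with log2 differences of -0.95, -1.12 and -1.46. Without control intestine replicate 1 its value was -1.79. With all libraries DESeq2 called 3 members lower (*Fos*, *Junb* and *Dusp1*), where 653 of the 16218 genes tested were called lower. Between the libraries numbered 1 alone the log2 difference was -0.69 for *Fos*, -0.53 for *Fosb*, -0.60 for *Junb* and -1.12 for *Dusp1*, and between those numbered 2 it was -1.57, -1.52, -2.03 and -1.60. By the study's methods both organs were dissected from each animal, although the labels do not say that a replicate number marks the same animals. With a block for each genotype and replicate number, the members called lower in the control intestine were 4, *Fos* (log2 -1.13, adjusted p = 0.00427), *Fosb* (-1.01, adjusted p = 0.018), *Junb* (-1.26, adjusted p = 0.0171) and *Dusp1* (-1.34, adjusted p = 0.000271). That fit called 751 of the 16218 genes tested lower. With a block of the replicate number alone, *Dusp1* was the 1 member called (-1.335, adjusted p = 0.00235), with 673 genes called lower. There *Fos* (adjusted p = 0.0957), *Junb* (adjusted p = 0.0959) and *Fosb* (adjusted p = 0.16) did not pass.

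The same organ comparison in *Eed* KO mesenchyme used 4 other libraries. There 8 of 10 members were lower in the intestine, 7 of them without overlap (23.9% of all genes), with a median log2 difference of -0.91. None was called (2.94% of all genes were, in that direction), and *Zfp36* alone passed the adjusted p (58.6 ± 1.51 against 109.7 ± 5.70 CPM, log2 -0.91 ± 0.20, adjusted p = 0.0386, as did 4.01% of all genes). Leaving out any 1 of the 4 libraries, the adjusted p of *Zfp36* was 0.0912 to 0.141. *Dusp1* differed by -1.07 ± 0.26 with an adjusted p of 0.0582. *Junb* (log2 -1.30 ± 0.40), *Fosb* (-1.07 ± 0.35), *Fos* (-1.06 ± 0.33) and *Egr1* (-0.91 ± 0.33) had differences as large, with adjusted p of 0.116 to 0.172. An unadjusted p under 0.05 was found for 7 members and for 3234 of the 16218 genes tested. DESeq2 called 4 members lower here, *Fos*, *Fosb*, *Junb* and *Dusp1*, where 563 of the 16218 genes tested were called lower. The fit with a block for each genotype and replicate number called the same 4, with 774 genes called lower. A block of the replicate number alone called *Dusp1* (-1.09, adjusted p = 0.0062), with 626 genes called lower. *Jund* (0.03 ± 0.11) and *Atf3* (0.15 ± 0.29) were the 2 members above 0.

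**Figure D3:**
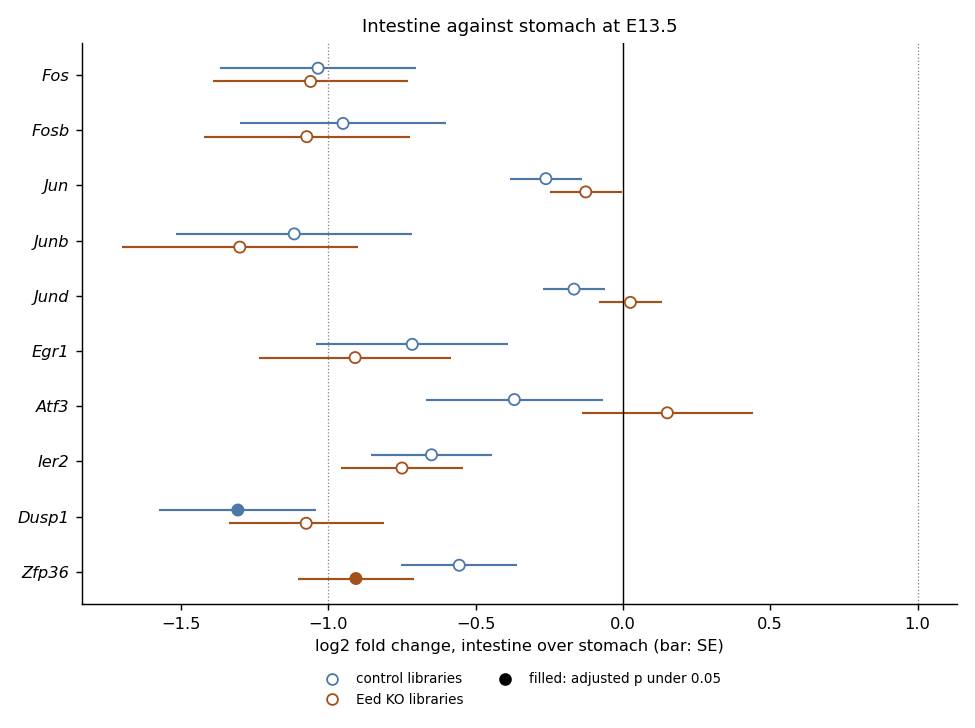
Log2 fold change of intestine over stomach for each member, with SE bars, in control libraries (blue) and *Eed* KO libraries (brown), with filled points where the adjusted p is under 0.05 and dotted lines at a log2 change of 1 in either direction. Points of both genotypes lie below 0 for 8 members, and *Dusp1* in control and *Zfp36* in *Eed* KO libraries are the 2 filled points.

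Loss of *Eed* in embryonic mesenchyme changed no member by the call rule. In the intestine 8 members were above 0 and 2 below, the median log2 difference was 0.38, and 3 (*Egr1*, *Atf3* and *Zfp36*) were higher without overlap, as were 21.8% of all genes. *Atf3* was 10.5 ± 1.09 CPM against 4.86 ± 1.74, log2 1.11 ± 0.30 with an adjusted p of 0.114, and *Egr1* was 377 ± 173 against 219 ± 42.6, log2 0.78 ± 0.33 with an adjusted p of 0.337. In edgeR's test 2 members had an unadjusted p under 0.05, as did 2274 of the 16218 genes tested. Over all genes edgeR called 2.61% in either direction. DESeq2 called *Atf3* alone, where 628 of the 16218 genes were called higher.

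In the stomach 9 members were above 0, with a median of 0.35, and 6 were higher without overlap (27.7% of all genes). *Zfp36* came closest to the threshold, at 109.7 ± 5.70 against 67.0 ± 0.93 CPM (log2 0.71 ± 0.20, adjusted p = 0.0726), followed by *Egr1* at 708 ± 163 against 360.3 ± 71.5 CPM (log2 0.97 ± 0.33, adjusted p = 0.126). *Jund* was the member below 0, at -0.24 ± 0.11. None of the 10 was called by edgeR, which called 5.65% of all genes, or by DESeq2. In edgeR's test 2 members had an unadjusted p under 0.05, as did 3668 of the 16218 genes tested. The scaling mattered here. Scaled to the spike-in transcripts, which took a smaller share of reads in each *Eed* KO library, the median log2 difference of all genes moved by 1.84 (intestine) and 2.39 (stomach). All 10 members were called higher along with it, as were 13664 (intestine) and 15419 (stomach) of the 16218 genes tested. With 1 spike-in factor in the model *Fos*, *Fosb*, *Jun* and *Egr1* were below 0 in both organs, *Egr1* at -0.28 (intestine) and -0.34 (stomach).

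No organ dependence of the *Eed* effect was detected. The interaction of *Eed* KO and organ had an adjusted p of 1.00 for each member and values from -0.35 ± 0.28 (*Zfp36*) to 0.52 ± 0.42 (*Atf3*), none had an unadjusted p under 0.05 or was called by DESeq2, and 0.462% of all genes passed at the threshold of 0.2. For this interaction 954 of the 16218 genes tested had an unadjusted p under 0.05. Taking 2 SE either side, an organ dependence of *Fos* between -0.95 and 0.90 on the log2 scale lies within these data.

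In the adult intestine 3 members were called higher in the libraries labelled EED-KO, where 12.3% of all genes were. *Atf3* was 105 and 115 CPM in the 2 WT libraries and 659 and 780 in those labelled EED-KO, a 6.55-fold difference (log2 2.71 ± 0.21, adjusted p = 0.000276). *Fosb* was 43.9 and 23.2 CPM in WT and 98.5 and 131 in EED-KO (log2 1.78 ± 0.33, adjusted p = 0.00919). *Dusp1* was 886 and 1146 CPM in WT and 2036 and 2876 in EED-KO (log2 1.27 ± 0.25, adjusted p = 0.0112), a call lost without WT replicate 1 (log2 1.10, adjusted p = 0.0551). *Zfp36* was 792 and 739.9 CPM in WT and 1379 and 1428 in EED-KO, which passed the adjusted p but not the fold (log2 0.87 ± 0.18, adjusted p = 0.0146, where 14.1% of all genes passed in that direction). Without WT replicate 1 or 2 the adjusted p of *Zfp36* was 0.0668 or 0.0907.

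The other 6 members did not pass. *Fos* was 1549 and 1555 CPM in WT and 1851 and 1889.9 in EED-KO (log2 0.27 ± 0.18, adjusted p = 0.319), and *Junb* 829 and 993 against 1157 and 1332 (0.45 ± 0.20, adjusted p = 0.15). *Jun*, at 1288 and 1348 CPM in WT and 1083 and 1027 in EED-KO, was the member that was lower without overlap (-0.32 ± 0.18, adjusted p = 0.244). In all 6 members were higher without overlap, against 32.3% of all genes. On the TPM scale, which takes each gene as a share of the whole library, only *Atf3*, *Fosb*, *Dusp1* and *Zfp36* were higher in EED-KO and 6 were lower, *Fos*, *Junb*, *Jund* and *Ier2* among them, so that no direction is given for those 4.

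Markers of other cells moved with this comparison. The leukocyte list summed to 744 to 1042 CPM in WT and 13412 to 15881 in EED-KO, a lymphocyte and antigen presentation list of 8 genes to 3696 to 5035 and 98881 to 109370 CPM, and the mesenchyme list to 26773 to 28946 and 9989.7 to 11381 CPM. Their part in the differences of the members was not tested. Scaled to spike-in transcripts, with which the median of all genes fell by 0.42 on the log2 scale, *Atf3* alone was called. That scaling called 1154 of the 15039 genes tested higher.

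**Figure D4:**
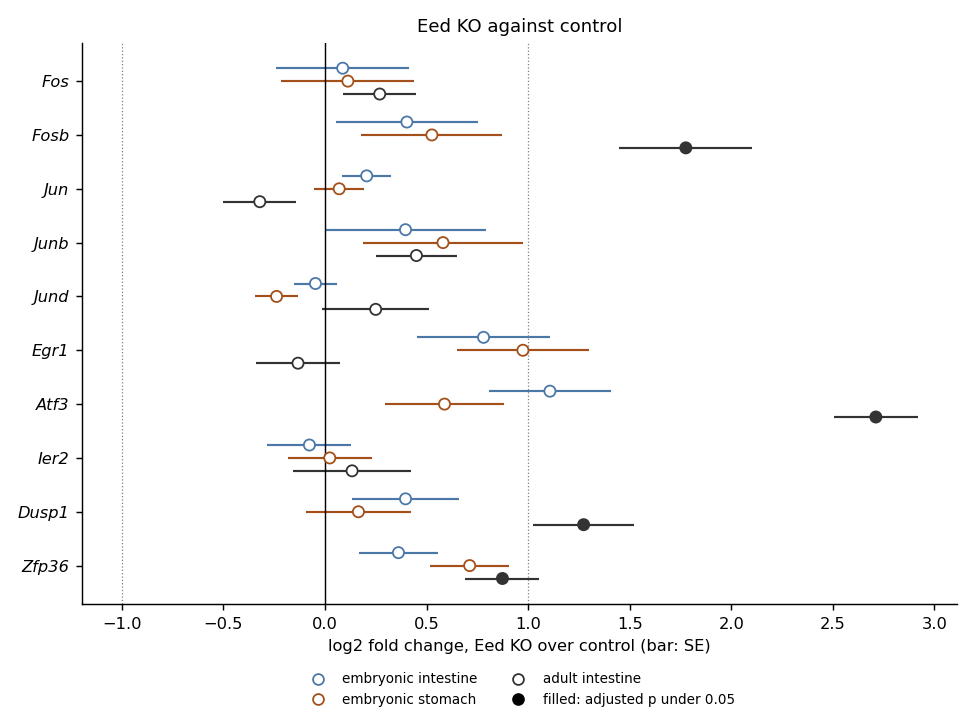
Log2 fold change of *Eed* KO over control for each member, with SE bars, in embryonic intestine (blue), embryonic stomach (brown) and adult intestine (black, libraries labelled EED-KO against WT), with filled points where the adjusted p is under 0.05. The 4 filled points are all adult, *Fosb*, *Atf3*, *Dusp1* and *Zfp36*, at 0.87 to 2.71.

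The adult difference between libraries labelled EED-KO and WT was set against the embryonic difference between *Eed* KO and control intestine in a fit of all 12 libraries, a comparison added after the data were seen. *Eed* itself did not pass in the adult and its own difference was not the same at both ages (1.69 ± 0.29, adjusted p = 0.0038), so that the adult value is a difference between labels. *Atf3* was the 1 member called, with a difference larger in the adult by 1.59 ± 0.36 on the log2 scale (adjusted p = 0.0142), where 13.7% of all genes were called in either direction. *Fosb* (1.36 ± 0.54, adjusted p = 0.116) and *Dusp1* (0.87 ± 0.39, adjusted p = 0.164) did not pass. The *Atf3* call was lost without control embryonic intestine replicate 1 (1.17, adjusted p = 0.0712) or *Eed* KO embryonic intestine replicate 2 (1.49, adjusted p = 0.052).

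Adult WT intestine was also set beside embryonic control intestine. All 10 members were called, 8 higher and 2 lower in the adult, in a comparison that called 31.4% of all genes higher and 29.9% lower. *Dusp1* was 61.8-fold higher (1202 against 19.4 CPM, log2 5.95 ± 0.34), *Junb* 34.9-fold, *Atf3* 28.7-fold and *Zfp36* 21.5-fold, with adjusted p from 4.33e-08 to 1.57e-06. *Jun* (8.19-fold), *Fos* (7.12-fold), *Ier2* (6.10-fold) and *Egr1* (4.61-fold) were higher by less. Without control embryonic intestine replicate 1 the log2 difference of *Junb* was 6.10 and that of *Fos* 3.48, against 5.13 and 2.83 with all libraries, and without replicate 2 that of *Junb* was 4.55. *Jund* differed by -2.36 ± 0.20 and *Fosb* by -1.10 ± 0.39 on the log2 scale, with adjusted p of 1.70e-06 and 0.0252. The *Fosb* call was lost with DESeq2, with RLE scaling, without control embryonic intestine replicate 1 (-0.57, adjusted p = 0.25) and without adult WT replicate 2 (-0.71, adjusted p = 0.181). The 2 feedback genes, which were among the lower members in the embryo, were thus among the 5 most abundant in the adult per unit length.

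Age cannot be told apart here from the cell types in the sort, the Cre driver, the tamoxifen treatment of adult mice, the dissociation, the library kit and the counting. The leukocyte list summed to 744 to 1042 CPM in adult WT against 10.9 to 12.6 in embryonic control intestine, and the lymphocyte and antigen presentation list to 3696 to 5035 against 1.51 to 2.12 CPM, with *Cd3e*, *Ms4a1* and *H2-Aa* at 0 counts in both of those embryonic libraries. Their part in the differences between ages was not tested. Embryonic tissue was digested briefly with TrypLE, while adult tissue was shaken repeatedly in EDTA and then digested for longer with Dispase and a protease. The embryonic libraries kept strand and the adult libraries did not, and 18.9% of the *Jund* exon sequence overlaps an opposite-strand gene, *Gm11175*, and 7.28% of *Jun* overlaps *Junos*, while no other member overlaps another gene's exons.

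**Figure D5:**
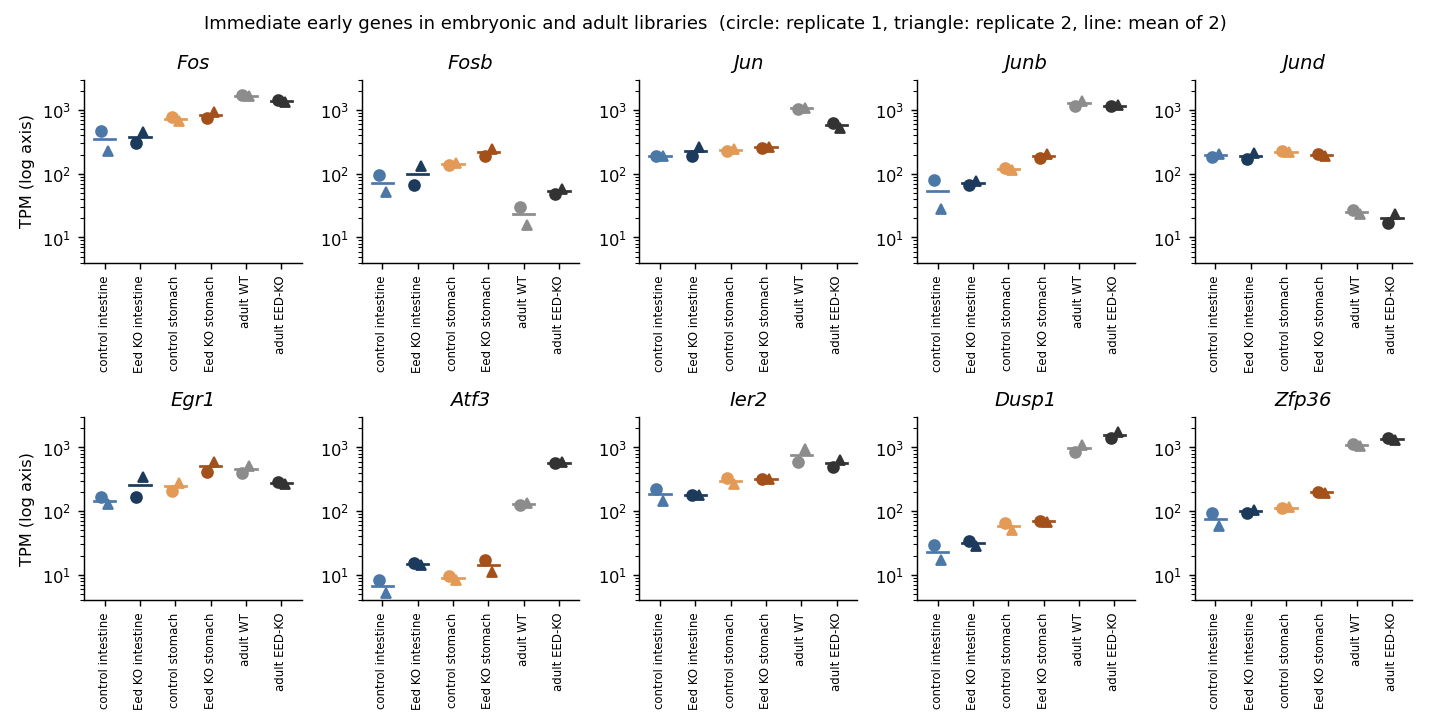
TPM of each member in all 12 libraries on a log axis, with circles for replicate 1, triangles for replicate 2 and a line at the mean of 2. Adult libraries are above all embryonic libraries for *Fos*, *Jun*, *Junb*, *Atf3*, *Ier2*, *Dusp1* and *Zfp36* and below them for *Jund*.

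A wider list of 40 immediate early and delayed early genes, none of them a member, was read in the same comparisons. In the control organs 39 were tested, 13 were above 0 and 26 below, 2 were called higher in the intestine and 2 lower, and their median log2 difference was -0.15. *Ptgs2* (COX-2, 5.59 ± 0.44 against 1.30 ± 0.29 CPM) and *Dusp4* (26.0 ± 2.72 against 11.5 ± 0.91 CPM), another MAP kinase phosphatase, were higher in the intestine. *Socs3*, a feedback inhibitor of cytokine receptors, was lower (53.9 ± 11.9 against 126 ± 18.7 CPM, adjusted p = 0.0057), as was the zinc finger factor *Klf4* (6.76 ± 0.05 against 13.8 ± 2.47 CPM, adjusted p = 0.00754). In *Eed* KO mesenchyme 2 were higher in the intestine, *Ctgf* and *Ptgs2*, and 4 lower, among them *Klf4*, *Socs3* and *Btg2* (51.5 ± 2.88 against 117 ± 16.9 CPM). Over all genes 3.39% (control) and 2.94% (*Eed* KO) were called lower in the intestine.

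With *Eed* lost, 2 genes of this list were called higher in the intestine, 6 were in the stomach and none was lower, with medians of 0.28 and 0.24 against 0.01 and 0.00 over all genes. Over all genes 2.61% (intestine) and 5.65% (stomach) were called in either direction. *Nr4a3*, an orphan nuclear receptor gene, was called in both organs, from 0.373 ± 0.147 to 2.14 ± 0.235 CPM in the intestine (adjusted p = 0.00954) and from 0.476 ± 0.024 CPM in the control stomach to 3.67 CPM in each *Eed* KO library (adjusted p = 0.00186). *Klf4* was called in both as well, at 2.34-fold and 2.66-fold. *Egr2*, a paralog of *Egr1*, was called in the stomach (39.2 ± 0.19 against 9.51 ± 0.71 CPM, adjusted p = 0.00842). None of the list was called for the interaction with organ.

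In the adult libraries 23 of the 38 genes tested were called higher in EED-KO, where 12.3% of all genes were, and 2 lower, with a median of 1.53. *Ptgs2* (376 ± 31.9 against 55.8 ± 8.99 CPM), *Nr4a2* (160.0 ± 49.6 against 24.3 ± 0.47 CPM) and *Tnfaip3* (205 ± 19.0 against 34.1 ± 10.4 CPM), an inhibitor of NF-kappaB signalling, had the smallest adjusted p of those higher, and *Cyr61* (385 ± 72.5 against 1325 ± 255 CPM) and *Ctgf* (32.2 ± 0.92 against 82.8 ± 32.7 CPM), secreted matricellular proteins, were the 2 lower. Between adult WT and embryonic control intestine 25 of 40 were called higher and 11 lower, against 31.4% and 29.9% of all genes. *Btg2* was 25.5-fold higher in the adult, *Klf6* 7.01-fold and *Bhlhe40* 13.1-fold, while *Srf*, the gene of serum response factor, was lower at 5.72 against 118 CPM, and *Ier5* and *Ier5l* were lower too.

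No listed gene upstream of the members was called in the embryo. The list held 21 kinase, receptor and transcription factor genes, which include *Srf*, with medians of -0.11 to 0.07 between organs or with *Eed* lost. Over all genes 2.61% (intestine) and 5.65% (stomach) were called with *Eed* lost, so that 0 of 21 is close to these shares. In the *Eed* KO intestine 18 of the 21 were below 0 and 3 above. The adjusted p alone was passed by 1 gene between control organs, higher in the intestine, and by 1 in the *Eed* KO stomach, lower. In the adult *Rps6ka1*, a ribosomal S6 kinase gene, was called higher in EED-KO (38.6 ± 2.71 against 4.24 ± 0.83 CPM) and *Pdgfra*, a receptor gene of fibroblasts, lower (298 ± 40.9 against 1033 ± 167 CPM). Between adult WT and embryonic control intestine 17 of 21 were called lower and none higher, with a median of -1.35. Over all genes 29.9% were called lower and 31.4% higher. The gene of the stress kinase p38 alpha, *Mapk14*, was at 16.0 ± 5.16 CPM in the adult against 128 ± 0.97 in the embryo, and *Rps6ka3*, of the same kinase family as *Rps6ka1*, was at 33.0 ± 0.02 against 167 ± 10.9.

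Heat shock genes, which also respond to stress of handling, differed in the adult. In embryonic comparisons 1 of 14 was called, *Hspb1*, which was higher in the *Eed* KO intestine (27.0 ± 5.14 against 10.5 ± 0.13 CPM, adjusted p = 0.00615), and the list medians were -0.08 to 0.18. In the libraries labelled EED-KO 13 of 14 were called higher, where 12.3% of all genes were, with a median of 2.25. The inducible *Hspa1a* was at 4962 ± 1018 against 789 ± 40.4 CPM, the co-chaperone *Bag3* at 257 ± 21.9 against 53.6 ± 3.86 and the constitutive *Hspa8* at 9164 ± 1419 against 1360 ± 324. Between adult WT and embryonic control intestine 6 were called higher and 4 lower, against 31.4% and 29.9% of all genes. *Hspa1b* was at 565 ± 5.33 against 3.97 ± 1.44 CPM, *Hspa1a* at 933 ± 47.1 against 3.04 ± 1.92 and *Dnajb1* at 380 ± 90.7 against 73.6 ± 6.66, while *Hspd1*, *Hsp90ab1* and *Hspe1* were lower. These genes rose in the same libraries as *Atf3*, *Fosb* and *Dusp1*, and their part in that result was not tested.

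Of 12 genes known as AP-1 targets, 8 were tested in the embryo. *Ccl2* (2.71 ± 0.50 against 0.656 ± 0.190 CPM) and *Mmp9* (8.18 ± 0.65 against 3.99 ± 1.03 CPM) were called between the control organs, both higher in the intestine, and none was called lower, while 4 of the 8 were above 0 and 4 below, with a median of 0.05. Cyclin D1 (*Ccnd1*) was called higher with *Eed* lost in both organs, at 237 ± 33.3 against 73.6 ± 23.97 CPM in the intestine and 205 ± 4.31 against 102 ± 17.8 in the stomach. *Mmp9* was also called in the stomach (10.5 ± 0.22 against 3.99 ± 1.03 CPM), as was *Cxcl1*, which was close to absent, at 0.729 ± 0.449 against 0.040 ± 0.016 CPM. In *Eed* KO mesenchyme *Ccl2* was the gene called between organs, higher in the intestine.

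In the adult 8 of the 12 were called higher in EED-KO, where 12.3% of all genes were, and 2 lower, with a median of 2.96. Heme oxygenase 1 (*Hmox1*) was at 178 ± 21.6 against 9.99 ± 1.17 CPM, collagenase 3 (*Mmp13*) at 734 ± 77.0 against 8.23 ± 3.79 and the urokinase receptor (*Plaur*) at 649 ± 252 against 27.9 ± 4.95, while the stromelysins *Mmp3* and *Mmp10* were lower. Between adult WT and embryonic control intestine 9 were called higher and 1 lower, against 31.4% and 29.9% of all genes. *Mmp3* was at 440.3 ± 117 CPM in the adult and at 0 counts in both embryonic libraries, which allows up to 0.0992 CPM, *Ccl2* was 33.9-fold higher, *Cxcl1* was at 79.2 ± 30.3 against 0.099 ± 0.008 CPM, the latter at about the level of 3 counts, and *Plau* was the 1 lower.

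Across the 8 embryonic libraries the members followed one another except *Jund*. The correlation of each member's log2 CPM with the mean of the other 9 was 0.98 for *Junb*, 0.95 for *Fosb* and *Zfp36*, 0.92 for *Fos*, 0.91 for *Dusp1*, 0.85 for *Ier2*, 0.82 for *Egr1*, 0.80 for *Jun*, 0.46 for *Atf3* and -0.01 for *Jund* (Pearson's r, as a description, since the libraries share groups and the organ difference). The 5 other genes whose log2 CPM lay closest to the members' mean profile were *Sidt1* (r = 0.99, 0.034 to 0.356 CPM), *Esr1* (r = 0.99, 0.034 to 12.3 CPM), *Prokr2* (r = 0.98, 0.303 to 2.63 CPM), *Zfp365* (r = 0.97, 3.36 to 8.91 CPM) and *Btg2* (r = 0.97, 29.2 to 129 CPM). *Btg2*, an antiproliferative gene, is the only one of these that the wider list of early genes also holds, and the first 3 were at low counts in some or all libraries.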

How the data were processed

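RNA was measured in 12 libraries and accessible chromatin in 8 embryonic samples, for which 4 peak lists of pooled replicates were used. Per the labels and methods, the authors trimmed reads with Trimmomatic 0.32 and aligned RNA with STAR 2.5.1b and ATAC reads with BWA 0.7.8 to mm10. The deposited gene counts are whole and not normalized, from featureCounts. The deposited peak lists were made by the authors with MACS2 2.1.2 and give a fold enrichment ratio and a −log10 q per peak, down to about 1.

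From the counts, TMM scaling, the default low-count filter (16218 embryonic and 15039 adult genes kept, 19388 over all 12 libraries) and edgeR 4.0.16 quasi-likelihood tests with Benjamini-Hochberg adjustment over all tested genes were run in R 4.3.3. The embryonic fit held 8 libraries, the adult fit 4, and comparisons of ages all 12. A call needs an adjusted p under 0.05 (0.2 for the interaction) and a log2 fold change beyond 1. With 2 libraries against 2 an exact permutation test cannot go below p = 0.333, so p-values rest on the model's shared spread. SE is the log2 fold change over the square root of its F statistic. TPM used the exon lengths in the adult tables. Counting error at this depth is small for members (108 counts at the lowest).

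The members and lists were chosen with earlier results of these data known. Each member is named, up to 3 called genes per list, direction and comparison, and the 5 genes most alike over the 8 embryonic libraries. A gene that this rule would name is not reported here. The script was tested on simulated counts. Alternatives were DESeq2 1.42.0, RLE, no filter, no fold threshold, spike-in scaling, 1 spike-in factor, replicate blocks and leaving out each library, with other windows and thresholds for peaks and 1 strand for motifs. The authors' spike-in factors are not used here.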

Additional observations from a re-analysis of the deposited data

Results flagged for a closer look

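*Atf3* differed more between adult libraries labelled EED-KO and WT than between embryonic *Eed* KO and control intestine, by 1.59 on the log2 scale (adjusted p = 0.0142 in edgeR's quasi-likelihood test of the difference, higher in 2 of 2 libraries in each tissue). *Eed* itself did not pass between the adult groups (adjusted p = 0.317). Adult libraries labelled EED-KO also held more counts of leukocyte, lymphocyte and heat shock genes than adult WT libraries, and the part of these in the difference was not tested.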

How the results depend on the processing

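Counts of members called, of 10, depended on the tool and filter. Between control organs 1 was called, against 3 with DESeq2, with no low-count filter and with 1 spike-in factor, and 0 with spike-in scaling. That count changed when each library was left out. In *Eed* KO organs the count was 0, against 4 with DESeq2 or no filter, 2 with 1 spike-in factor and 1 with no fold threshold. That count changed without *Eed* KO intestine replicate 2. For *Eed* KO in the embryonic intestine 0 became 1 (*Atf3*) with DESeq2 or no filter and 10 with spike-in scaling. That count changed without control intestine replicate 1. In the stomach 0 became 10 with spike-in scaling. The adult count of 3 became 1 with spike-in scaling. The count of 1 for adult against embryonic differences became 2 with DESeq2 or no filter, and changed without some single libraries. For those differences DESeq2 called 1797 of 19388 genes higher and 1408 lower, and no filter 1598 and 1704 of 28753. Over all genes, those called lower in the intestine than in the stomach were 653 (control) and 563 (*Eed* KO) of 16218 with DESeq2. They were 672 and 588 with 1 spike-in factor, 85 and 95 with spike-in scaling, and 747 and 649 of 25364 with no filter. With no filter 734 of 25364 genes were called higher with *Eed* lost in the intestine. Spike-in scaling called 13664 of 16218 genes higher with *Eed* lost in the intestine and 15419 in the stomach. In the embryonic control intestine the median of member levels, 111.1 TPM, became 47.34 with spike-in scaling. Sp1 letters were in 3 promoters, not 6, on the given strand alone. The causes were not tested. The other 96 of 126 alternatives for such summaries stayed within their limits, as did 738 of 860 for single members.

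The differences whose sign turned had not passed the test as reported, and are given relative to the median shift of all genes. They were not all small, since *Egr1* was at 0.78 (intestine) and 0.97 (stomach) and *Fosb* at 0.53 in the stomach. With 1 spike-in factor the *Eed* KO values in the intestine were -0.54 (*Fos*), -0.55 (*Fosb*), -0.040 (*Jun*) and -0.28 (*Egr1*), in the stomach -0.72, -0.67, -0.24 and -0.34, and the interaction was 0.18 (*Fos*), 0.12 (*Fosb*) and 0.057 (*Egr1*). *Jund* was at 0.018 in the intestine with spike-in scaling. Leaving out single libraries, *Eed* KO values in the intestine ranged from -0.35 to 0.71 (*Fos*), -0.12 to 0.92 (*Fosb*), -0.17 to 1.35 (*Junb*), -0.17 to 0.052 (*Jund*) and -0.37 to 0.29 (*Ier2*), and in the stomach from -0.037 to 0.25 (*Fos*) and -0.11 to 0.18 (*Ier2*). In adults they ranged from -0.31 to 0.066 (*Egr1*), -0.17 to 0.52 (*Ier2*) and -0.10 to 0.50 (*Jund*), and the *Eed* KO organ difference from -0.15 to 0.53 (*Atf3*), -0.31 to 0.030 (*Jun*) and -0.10 to 0.13 (*Jund*). The adult EED-KO difference set against the embryonic *Eed* KO difference in the intestine ranged from -0.47 to 0.61 (*Fos*), -0.93 to 0.61 (*Junb*), -0.067 to 0.57 (*Jund*) and -0.18 to 0.59 (*Ier2*). The interaction ranged from -0.47 to 0.60 (*Fos*), -0.64 to 0.39 (*Fosb*), -0.049 to 0.29 (*Jun*), -0.76 to 0.77 (*Junb*), -0.76 to 0.20 (*Egr1*), -0.40 to 0.26 (*Ier2*), -0.13 to 0.71 (*Dusp1*) and -0.65 to 0.021 (*Zfp36*).

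Libraries of 1 number deviated together in the embryo (correlations of 0.342 to 0.85 over 6 pairs of groups) and not in the adult (-0.0869), but nothing in the labels ties a number to shared animals. With the replicate number as a block 1 member was called for *Eed* KO in the intestine (*Atf3*, where 575 of the 16218 genes tested were called higher). That block called 1 between control organs (*Dusp1*, where 673 genes were called lower). It called 1 between *Eed* KO organs (*Dusp1*, where 626 genes were called lower). With a replicate block for each genotype and number 4 were called between organs in each genotype, where 751 (control) and 774 (*Eed* KO) of the genes tested were called lower. In that fit the *Fos* interaction was 0.052.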
